A study of Mus musculus with 6 samples.

Results

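Immediate early and stress response genes were described in sorted aortic cells. The set held 35 genes of 24421 rows in the matrix, chosen by symbol as members of the AP-1, Egr, Nr4a, Klf and Ier families, feedback inhibitors, Gadd45 and CCN genes and inducible heat shock proteins. All 35 were found, 34 were above 0 in some library and 33 passed the filter for testing. The samples were 6 bulk RNA sequencing libraries of cells of the aortic root and ascending aorta, from mice of the 129S6/SvEv strain aged 8 weeks. The column labels of all 6 libraries carry WT, read here as wild type. All mice carried the conditional *CAG-Sun1/sfGFP* tracer allele, which labels nuclei with GFP after Cre recombination. In 3 libraries the tracer was switched on by *Mef2cSHF*, a Cre active in the secondary heart field (SHF), and in 3 by *Wnt1-Cre2*, a Cre active in the cardiac neural crest (CNC). Both alleles mark descent and not a cell type, and the traced descendants of either lineage can include more than smooth muscle. The tissue of every mouse was digested with collagenase and elastase at 37°C for 30 minutes before living GFP+ cells were sorted, and no undigested sample was among the libraries.

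Immediate early genes are transcribed within minutes of a stimulus, without new protein synthesis, because their activators are already present and are switched on by kinases. Serum response factor, which binds CArG boxes, and CREB, which binds cAMP response elements, are among these activators. Many early products are themselves transcription factors, and others, such as phosphatases and mRNA decay proteins, end the signal that induced them. Enzymatic dissociation of tissue is a known stimulus of the same genes, as are injury, growth factors and stretch. Since all libraries came from digested tissue, induction during digestion and expression in the intact aorta cannot be told apart here.

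Most of the genes were short, with few exons. In GENCODE M21 on GRCm38, the build also called mm10, their median span was 4.24 kb, against 25.2 kb for 9488 other tested genes with a match. The median exon number was 3 in the set and 9 in the other genes. Of the 35 genes, 29 had at most 4 exons in their longest coding transcript, compared with 19.4% of the other tested genes, and 7 had a single exon. By annotated span *Ier3* was the shortest, at 1.24 kb on chromosome 17 from 35821684 to 35822923. The longest span was that of *Dusp1*, at 56.5 kb on the same chromosome from 26505590 to 26562128. It covers all annotated transcripts of *Dusp1*, whose longest coding transcript has 1.99 kb of exons. The *Dusp1* promoter stretch printed below lies inside this span. *Fos* lies on chromosome 12 from 85473890 to 85477273, and *Nr4a1* on chromosome 15 from 101254269 to 101274795. Chromosome 8 held 5 of the genes, *Junb*, *Jund*, *Klf2*, *Ier2* and *Dnajb1*. Exons of 8 genes overlapped those of another gene, *Fosl1*, *Jun*, *Junb*, *Jund*, *Zfp36*, *Dusp1*, *Hspa1a* and *Ctgf*, and because the sequencing kit does not keep strand, reads of these overlaps cannot be assigned with certainty.

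Promoter windows of RefSeq on GRCm38.p6, from 250 bases before to 50 bases after an annotated start, were matched for 29 of the 35 genes, all but *Egr1*, *Egr3*, *Fosl1*, *Ier2*, *Myc* and *Ctgf*. They were searched on both strands. A CArG box was found in 2 of the 29 genes, *Egr2* and *Zfp36*, and in 1.81% of all 27025 genes with a searched window. The cAMP response element TGACGTCA was found in *Btg2*, *Dusp1* and *Maff* and in 2.03% of all genes. The Egr site GCGNGGGCG occurred in 11 of the 29 genes and in 6.27% of all genes. The windows of the set also held more G and C, with a median of 63.3% against 52.7%. The heat shock element, searched as GAANNTTC or TTCNNGAA, occurred in 6 of 29 genes and 17.0% of all genes, the TATA box TATAAA in 6 of 29 and 15.7%, and the AP-1 site TGANTCA in 0 of 29 and 8.97%. A CArG box can contain the letters TATAAA, whereas no other of these motifs contains another, and a match is a run of letters and not a shown binding site.

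The following stretches lie before the start sites and show 1 example of each kind of match, with the matched bases in capitals. *Fos* was the most abundant gene with a TATA box and *Dusp1* the most abundant with a cAMP response element. *Nr4a1* holds an Egr site, read here on the opposite strand, *Egr2* holds a CArG box, and the neighbouring genes *Hspa1a* and *Hspa1b* hold the same heat shock element, in stretches that differ at 1 of 160 bases.
Fos, chr12:85473770-85473889, plus strand, TATA box: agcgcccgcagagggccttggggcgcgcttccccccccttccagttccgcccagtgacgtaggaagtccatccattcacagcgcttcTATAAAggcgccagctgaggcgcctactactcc
Dusp1, chr17:26508520-26508632, minus strand, cAMP response element: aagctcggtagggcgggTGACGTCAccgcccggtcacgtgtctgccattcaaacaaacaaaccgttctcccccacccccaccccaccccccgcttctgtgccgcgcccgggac
Egr2, chr10:67537406-67537565, plus strand, CArG box: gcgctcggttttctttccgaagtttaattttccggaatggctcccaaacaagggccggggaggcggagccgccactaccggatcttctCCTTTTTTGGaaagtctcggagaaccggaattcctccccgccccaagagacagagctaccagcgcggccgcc
Nr4a1, chr15:101266686-101266845, plus strand, Egr site: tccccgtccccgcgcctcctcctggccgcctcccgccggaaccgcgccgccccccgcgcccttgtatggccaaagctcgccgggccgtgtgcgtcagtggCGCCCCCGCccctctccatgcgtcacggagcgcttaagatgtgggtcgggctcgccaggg
Hspa1a, chr17:34972157-34972316, minus strand, heat shock element: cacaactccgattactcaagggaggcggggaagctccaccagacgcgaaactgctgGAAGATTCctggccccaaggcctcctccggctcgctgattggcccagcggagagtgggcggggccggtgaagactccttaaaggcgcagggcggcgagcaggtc
Hspa1b, chr17:34959239-34959398, minus strand, heat shock element: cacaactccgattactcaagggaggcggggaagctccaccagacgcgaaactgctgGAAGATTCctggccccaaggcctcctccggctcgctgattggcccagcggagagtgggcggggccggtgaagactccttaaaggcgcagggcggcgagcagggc

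Levels are given as TPM, transcripts in every 1000000, which are corrected for transcript length and relative to the total of a library. Values are listed below for SHF replicates 1, 2 and 3 and then for CNC replicates 1, 2 and 3. TPM keeps no record of how many reads stand behind a value, which leaves depth unknown, and a value of 0 means only that the gene is listed at 0. The number of genes above 0 ran from 9255 to 11858 over the libraries. Early and stress response transcripts were abundant in all 6 libraries. *Fos*, *Junb* and *Egr1* were above 1000 TPM in every library, 14 of the 35 genes were above 100 TPM in every library, and 27 were above 5 TPM in every library. By mean TPM, *Fos* ranked 63 and *Junb* 97 of all rows, and 18 of the genes were among the 1000 rows of highest mean. The study listed lineage-exclusive transcripts, read here as those above 5 TPM throughout one lineage and listed at 0 throughout the other, and 0 of the 35 genes met this reading, while 0.139% of all 24421 rows did.

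**Figure D1:**
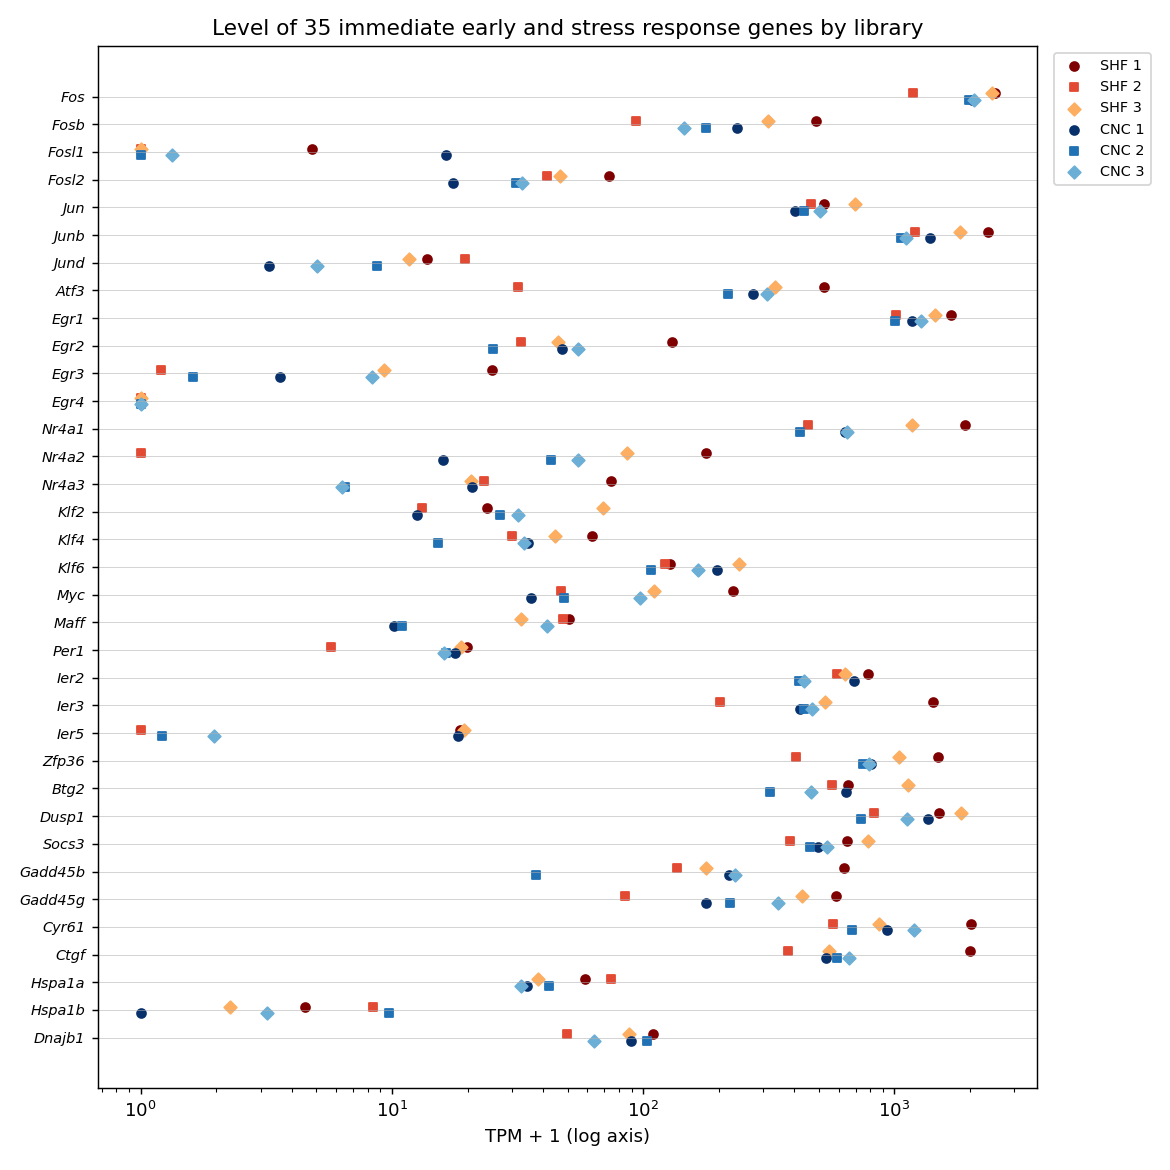
Level of each of the 35 genes in the 6 libraries, as TPM + 1 on a log axis, with SHF libraries drawn in red to orange and CNC libraries in blue. *Fos*, *Junb* and *Egr1* lie above 1000 TPM in every library, *Egr4* is at 0 in all, and SHF replicate 1 (dark red circles) is the rightmost point for 23 genes.

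Fos proteins pair with Jun proteins to form AP-1, a transcription factor that acts on matrix, cytokine and growth genes. *Fos* had 2504, 1188 and 2440.0 TPM in the SHF libraries and 2039, 1974 and 2074 TPM in the CNC libraries. The CNC values lay within 1.05-fold of each other, while SHF replicate 2 was below all other libraries. *Fosb*, which yields a full-length protein and a long-lived shorter form, stood at 488, 92.8 and 314 TPM and at 235, 177 and 144 TPM. *Fosl2* stood at 72.1, 40.3 and 45.8 TPM and at 16.5, 30.2 and 31.9 TPM, so that each SHF library was above each CNC library. *Fosl1* was listed at 0 in 3 libraries and reached 15.4 TPM in CNC replicate 1, and it was not tested. The order *Fos*, *Fosb*, *Fosl2*, *Fosl1* held in 6 of 6 libraries, with *Fos* at 5.13 to 14.4 times the level of *Fosb*.

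Jun proteins are the partners of Fos proteins in AP-1. *Junb* stood at 2360.0, 1205 and 1820.0 TPM in the SHF libraries and 1382, 1057 and 1109 TPM in the CNC libraries. Here SHF replicates 1 and 3 were above all CNC libraries and SHF replicate 2 was between them. *Jun* stood at 521, 463 and 694 TPM and at 402, 434 and 503 TPM, a narrower range. *Jund*, which in many tissues is expressed without a stimulus, was the lowest of the 3 in every library, at 12.9, 18.5 and 10.7 TPM and at 2.24, 7.75 and 4.02 TPM. *Jun* exceeded *Jund* by 25.03 to 179.5 times within a library, and the SHF and CNC values of *Jund* did not overlap. The SHF library with the most *Jund* was replicate 2, which had the least *Jun*. *Atf3*, a stress-induced factor that can pair with Jun proteins, stood at 524, 30.7 and 335 TPM and at 272, 217 and 309 TPM, a range of 17.1-fold among SHF libraries and 1.43-fold among CNC libraries.

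Egr zinc finger factors respond to growth factors and mechanical load. *Egr1*, which many cell types induce after injury, stood at 1673, 1014 and 1447 TPM in the SHF libraries and 1169, 1005 and 1277 TPM in the CNC libraries. *Egr2* stood at 130, 31.7 and 44.99 TPM and at 46.5, 24.3 and 54.1 TPM. *Egr3* was lower, at 24.1, 0.20 and 8.32 TPM and at 2.57, 0.61 and 7.33 TPM. *Egr4* was listed at 0 in all 6 libraries. *Egr1* exceeded *Egr2* in 6 of 6 libraries, by 12.9 to 41.4 times, and *Egr2* exceeded *Egr3* in 6 of 6.

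Nr4a proteins are orphan nuclear receptors that act without a known physiological ligand and are governed chiefly by their own induction. *Nr4a1* stood at 1916, 453 and 1174 TPM in the SHF libraries and 634, 422 and 647 TPM in the CNC libraries. SHF replicates 1 and 3 were above every CNC library, and SHF replicate 2 lay among them. *Nr4a2* stood at 176, 0 and 85.1 TPM and at 15.0, 41.8 and 53.8 TPM, and *Nr4a3* at 73.4, 22.3 and 19.6 TPM and at 19.9, 5.51 and 5.31 TPM. *Nr4a1* was the most abundant of the 3 in each library.

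Klf factors bind GC-rich promoters, and *Klf4* is known for repressing the contractile program of smooth muscle cells. *Klf4* stood at 61.5, 29.2 and 43.6 TPM in the SHF libraries and 33.8, 14.3 and 32.7 TPM in the CNC libraries, and the groups overlapped. *Klf6* was the highest of the 3 in every library, at 127, 121 and 239 TPM and at 196, 106 and 165 TPM. *Klf2*, which endothelial cells induce under flow, stood at 22.8, 12.2 and 68.4 TPM and at 11.5, 25.9 and 30.9 TPM. The highest library was SHF replicate 3, where the 10 endothelial markers summed to 633 TPM, and their highest sum, 858 TPM, was in SHF replicate 2. The part of endothelial cells in the *Klf2* values was not tested.

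*Myc*, which drives growth and division, stood at 226, 46.1 and 110 TPM in the SHF libraries and 34.8, 47.5 and 96.1 TPM in the CNC libraries. *Maff*, a small Maf protein, stood at 49.9, 47.1 and 31.8 TPM and at 9.20, 9.96 and 40.3 TPM. *Per1*, which is a clock gene as well as an early gene, stood at 19.0, 4.72 and 17.8 TPM and at 16.9, 15.4 and 15.1 TPM, so that a single library, SHF replicate 2, stood below the rest.

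Ier genes were named for their immediate early response. *Ier2* stood at 784, 589 and 633 TPM in the SHF libraries and 692, 415 and 435 TPM in the CNC libraries. *Ier3*, a regulator of cell survival, stood at 1421, 201 and 530 TPM and at 419, 435 and 467 TPM. The SHF libraries thus spanned 7.08-fold and the CNC libraries 1.12-fold. *Ier5* stood at 17.7, 0 and 18.4 TPM and at 17.3, 0.22 and 0.95 TPM, and it entered the test on exactly 3 libraries.

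Feedback inhibitors were among the abundant genes of the set. *Dusp1*, a phosphatase that switches off p38, JNK and ERK kinases, stood at 1509, 828 and 1840.2 TPM in the SHF libraries and 1358, 737 and 1120 TPM in the CNC libraries. *Zfp36*, which binds AU-rich elements and speeds the decay of cytokine and early response mRNAs, stood at 1496, 405 and 1042 TPM and at 807, 745 and 794 TPM. Among CNC libraries *Zfp36* differed by at most 1.08-fold. *Socs3*, an inhibitor of cytokine receptor signaling through JAK kinases, stood at 646, 383 and 782 TPM and at 496, 458 and 536 TPM. *Btg2*, an antiproliferative cofactor of mRNA deadenylation, stood at 651, 565 and 1133 TPM and at 640, 318 and 467 TPM. For *Dusp1*, *Socs3* and *Btg2* the highest library was SHF replicate 3, whereas for *Zfp36* it was SHF replicate 1.

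Gadd45 proteins activate stress kinases and act in growth arrest. *Gadd45b* stood at 629, 136 and 176 TPM in the SHF libraries and 219, 36.3 and 231 TPM in the CNC libraries. *Gadd45g* stood at 585, 83.3 and 428 TPM and at 176, 221 and 342 TPM. Both had their highest value in SHF replicate 1. CCN proteins are secreted into the matrix, and *Cyr61* (also *Ccn1*) and *Ctgf* (also *Ccn2*) are well-known targets of YAP. *Cyr61* stood at 2019, 566 and 869 TPM and at 931, 676 and 1197 TPM, and *Ctgf* at 1998, 376 and 547 TPM and at 534, 589 and 659 TPM. SHF replicate 1 stood alone for *Ctgf*, since the other 5 libraries ended at 659 TPM.

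Heat shock proteins refold damaged proteins, and the *Hspa1* genes are inducible by heat. They were far below *Fos* and *Junb*. *Hspa1a* stood at 57.5, 73.4 and 37.1 TPM in the SHF libraries and 33.5, 41.2 and 31.7 TPM in the CNC libraries. *Hspa1b* stood at 3.49, 7.38 and 1.27 TPM and at 0, 8.75 and 2.18 TPM. The longest transcripts share 58.8% of the 50-base windows of *Hspa1a* and 62.3% of those of *Hspa1b*, so the split of reads between these genes is uncertain. *Dnajb1*, a cochaperone of Hsp70, stood at 108, 48.6 and 87.0 TPM and at 88.5, 103 and 62.6 TPM. The highest library of *Hspa1a* was SHF replicate 2, which was the lowest library for *Fos*, *Fosb* and *Atf3*.

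Levels of the set differed more between SHF libraries than between CNC libraries. Summed over the 35 genes, the level was 22912, 9082 and 17072 TPM in SHF replicates 1, 2 and 3, which is 2.29%, 0.908% and 1.71% of the library, and 12963, 10399 and 12944 TPM in CNC replicates 1, 2 and 3, which is 1.30%, 1.04% and 1.29%. The mean was 16355 ± 6943 TPM (SD, n = 3) in SHF and 12102 ± 1475 TPM (SD, n = 3) in CNC. Of the 34 genes with a value, 23 were highest in SHF replicate 1 and 7 in SHF replicate 3, while SHF replicate 2 alone was lowest for 14 and CNC replicate 2 alone for 10. Over all tested genes, 12.6% were highest in SHF replicate 1 and 17.8% in SHF replicate 3, while 19.5% were lowest in SHF replicate 2 alone and 12.2% in CNC replicate 2 alone. SHF replicate 2 was the highest library for 2 of the 34 genes and for 24.5% of all tested genes. Of the 30 genes above 0 in every library, 28 were higher in SHF replicate 1 than in SHF replicate 2, with a median ratio of 2.17, where 6276 tested genes above 0 in every library had a median ratio of 0.929.

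The spread within a lineage was measured as the SD of log2(TPM + 1) over its 3 libraries. For the 18 members with a mean of at least 100 TPM the median SD was 0.77 in SHF and 0.30 in CNC. Over all 1522 tested genes at that level it was 0.46 in SHF and 0.39 in CNC. At this level the members varied more than the genes as a whole among the SHF libraries, and less among the CNC libraries. Over all 33 members tested, low ones included, the median SD was 0.94 in SHF and 0.45 in CNC, below the 1.06 and 0.88 of the 9387 tested genes that reached the lowest mean of a member. These are descriptions of 3 libraries a lineage, with no test.

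**Figure D2:**
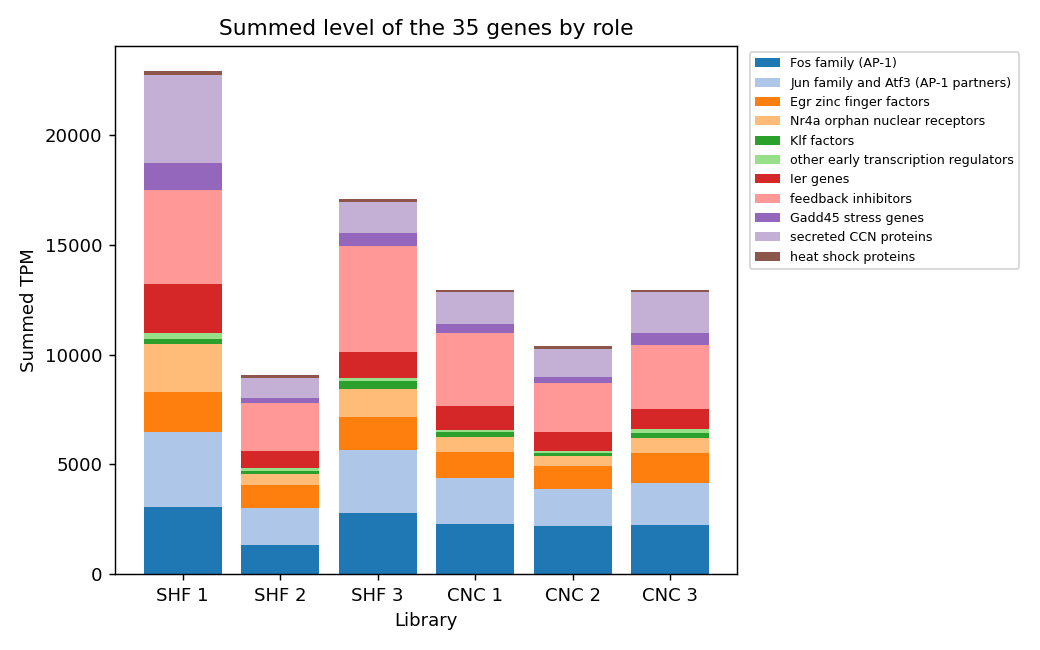
Summed TPM of the 35 genes in each library, stacked by role from 0. SHF replicate 1 reaches 22912 TPM and SHF replicate 2 only 9082 TPM, and the 3 CNC libraries lie between 10399 and 12963 TPM.

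SHF and CNC cells were compared gene by gene, which is the comparison of the study's design. The limma test ran on log2(TPM + 1) over 10185 genes that reached 1 TPM in 3 libraries or more. Among the 33 members tested, 0 passed an adjusted p of 0.05 in either direction, as did 0.0% of all genes tested. At an unadjusted p under 0.05 by limma there were 0 of 33 members, and 5.86% of all genes, 2.69% higher in SHF and 3.17% higher in CNC. Adjusted by the method of Benjamini and Hochberg, the limma p-values of the members ran from 0.874 to 0.997. Of the 33 members, 28 had a higher mean log2 level in SHF and 5 in CNC, while 51.2% of all tested genes were on the SHF side. The median difference was 0.41 in log2(TPM + 1) for the members and 0.02 for all tested genes. The 95% interval of each of the 33 differences included 0. That of *Nr4a1* was 0.85 ± 0.45 (SE) on the log2 scale, with a 95% interval from -0.15 to 1.85. That of *Junb* was 0.56 ± 0.28, with an interval from -0.06 to 1.18, and that of *Btg2* was 0.71 ± 0.36, from -0.07 to 1.49. *Fos* differed by -0.07 ± 0.30, with an interval from -0.72 to 0.58. The 5 genes with a higher mean log2 level in CNC were *Fos*, *Atf3*, *Nr4a2*, *Per1* and *Dnajb1*, all with intervals that included 0, and for each of the 5 the lowest library was SHF replicate 2.

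The libraries of the lineages did not overlap for 2 of 33 members, *Fosl2* and *Jund*, both higher in SHF, against 6.11% of all tested genes. In the CNC direction there were 0 members, against 5.68%. *Fosl2* differed by 0.99 ± 0.65 (SE) on the log2 scale and *Jund* by 1.49 ± 1.18, neither past the threshold in limma, with adjusted p-values of 0.876 and 0.889.

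SHF replicate 2 decided much of this picture. Without it, 33 of 33 members had a higher mean log2 level in SHF, where 53.9% of all genes did, and the median difference of the members was 0.88. The SHF libraries that remained lay above all CNC libraries for 21 of 33 members, among them *Fos*, *Fosb*, *Junb*, *Jun*, *Atf3*, *Egr1*, *Nr4a1*, *Zfp36* and *Dusp1*, against 11.8% of all tested genes higher in SHF under the same rule, and the reverse held for 0 members and 9.57% of all genes. By limma, 0 members passed the threshold then, the lowest adjusted p being 0.703 for *Nr4a1*, with a difference of 1.43 ± 0.33 (SE). In the same fit without SHF replicate 2, 9 of 33 members had an unadjusted p under 0.05 by limma, all higher in SHF, against 2.53% of all genes higher in SHF. This library was singled out because the members were low in it, so that leaving it out moves them towards SHF by construction. Without CNC replicate 1 the count at an unadjusted p under 0.05 by limma was 1 of 33, higher in SHF. There 2.43% of all genes were higher in SHF and 2.25% higher in CNC. Without any one of the other 4 libraries it was 0 of 33. In those fits 2.41% to 2.9% of all genes were higher in SHF and 2.02% to 4.95% higher in CNC. Without SHF replicate 1 the difference of *Nr4a1* was 0.39 and that of *Junb* 0.33, and that of *Btg2* was 0.41 without SHF replicate 3 and 0.45 without CNC replicate 2. Leaving out SHF replicate 1 instead gave a positive difference for 20 of 33 members and a median of 0.25. Without overlap and higher in SHF were 2 members when SHF replicate 1 was left out and 5 when SHF replicate 3 was, against 12.9% and 11.6% of all genes higher in SHF. Without CNC replicates 1, 2 and 3 they were 6, 3 and 4, against 10.0%, 10.8% and 10.7% of all genes higher in SHF. In the CNC direction there were 0 members in each of these 5 cases, against 9.53% to 12.1% of all genes. No label sets SHF replicate 2 apart from the other libraries, and it had the fewest genes above 0, 9255.

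**Figure D3:**
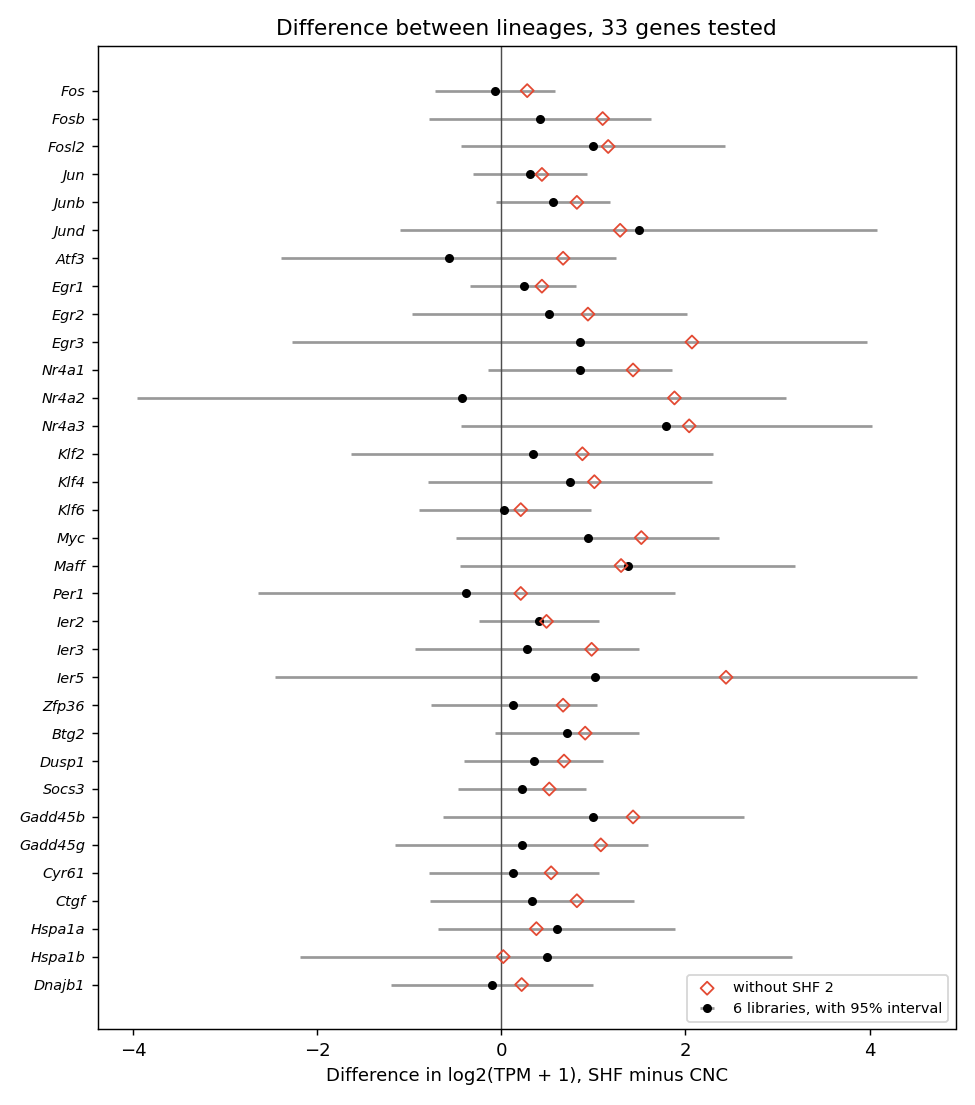
Difference in log2(TPM + 1), SHF minus CNC, for the 33 genes tested, with black points for the fit over 6 libraries and bars for its 95% interval. Open diamonds are the differences without SHF replicate 2, and all 33 of them are above 0, while every bar includes 0.

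Genes of the same pathways that are not in the set were read from lists of other early genes, inhibitors, kinases, chaperones and cytokines. In none of these lists did a gene pass the limma threshold in either direction, and at an unadjusted p under 0.05 by limma there were between 0 and 2 genes in a list of 7 to 25 tested genes, against 5.86% of all genes. As a sum, early cytokine genes, which AP-1 and NF-kB induce, followed the same order of SHF libraries. The sums were 6057, 486 and 2146 TPM in SHF replicates 1, 2 and 3. In CNC replicates 1, 2 and 3 they were 1346, 1451 and 1392 TPM. *Has2*, of the same list, did not have this order, at 5.28, 23.4 and 1.56 TPM and at 1.07, 2.43 and 0.48 TPM. *Cxcl1*, a neutrophil chemokine, stood at 3359, 110 and 1152 TPM and at 861, 928 and 812 TPM. *Ptgs2*, the inducible cyclooxygenase, stood at 265, 58.9 and 93.4 TPM and at 26.4, 48.8 and 35.0 TPM. Its SHF libraries were all above its CNC libraries, as for 1 of 9 tested genes of this list and 6.11% of all tested genes. By limma the adjusted p of *Ptgs2* was 0.771.

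Among other feedback inhibitors, 18 of 24 tested genes had a higher mean log2 level in SHF, with a median difference of 0.38 on the log2 scale. Over all tested genes 51.2% were on the SHF side, with a median difference of 0.02. *Nfkbia*, the inhibitor of NF-kB, stood at 1116, 201 and 564 TPM and at 391, 486 and 347 TPM, and *Errfi1*, an inhibitor of EGF receptor, at 808, 191 and 1514 TPM and at 607, 797 and 594 TPM. Again SHF replicate 2 was the lowest library for both. That did not hold for *Spry1*, at 49.4, 17.1 and 54.5 TPM and at 0, 5.12 and 24.3 TPM. Nor did it for *Tnfaip3*, at 63.7, 29.1 and 10.4 TPM and at 24.4, 0 and 12.3 TPM. Among 25 tested other early response genes 18 had a higher mean log2 level in SHF, with a median of 0.45. *Bhlhe40* stood at 323, 502 and 310 TPM and at 180, 107 and 187 TPM, with SHF replicate 2 the highest, and *Id3* at 1271, 962 and 1128 TPM and at 674, 788 and 1011 TPM.

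Kinases and factors upstream of the early genes were far less abundant. Their list of 20 genes summed to between 371 and 654 TPM in a library. Of its 19 tested genes 13 had a higher mean log2 level in SHF, against 51.2% of all tested genes, with a median of 0.31. *Map2k1*, the MEK1 kinase of the ERK cascade, stood at 82.4, 132 and 119 TPM and at 57.2, 35.7 and 46.8 TPM. Among other heat shock genes, *Hspa8* lay between 2893 and 3915 TPM and *Hsp90ab1* between 1309 and 1944 TPM over the 6 libraries, and the median difference of the 20 genes was 0.14. For the integrated stress response the median was 0.21 over 8 tested genes, and for 7 targets of YAP and SRF it was -0.08.

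Other measures differed between the same libraries. The clock genes, apart from *Per1*, summed to 199, 1129 and 683 TPM in SHF replicates 1, 2 and 3 and to 808, 470 and 457 TPM in CNC replicates 1, 2 and 3. *Per3* stood at 2.99, 319 and 146 TPM and at 57.7, 80.9 and 59.6 TPM, and *Bhlhe41* at 17.6, 350 and 131 TPM and at 124, 85.0 and 65.5 TPM. The library with the most early response transcripts, SHF replicate 1, thus had the lowest clock sum and the library with the least, SHF replicate 2, the highest. Between these extremes the inverse order did not hold, since CNC replicate 2 was below CNC replicate 1 in both sums. Not every clock gene had this order, and *Arntl* stood at 45.7, 0 and 27.8 TPM and at 0, 16.0 and 0 TPM. The hour of dissection is not in the labels, and the part of the clock in the differences was not tested.

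**Figure D4:**
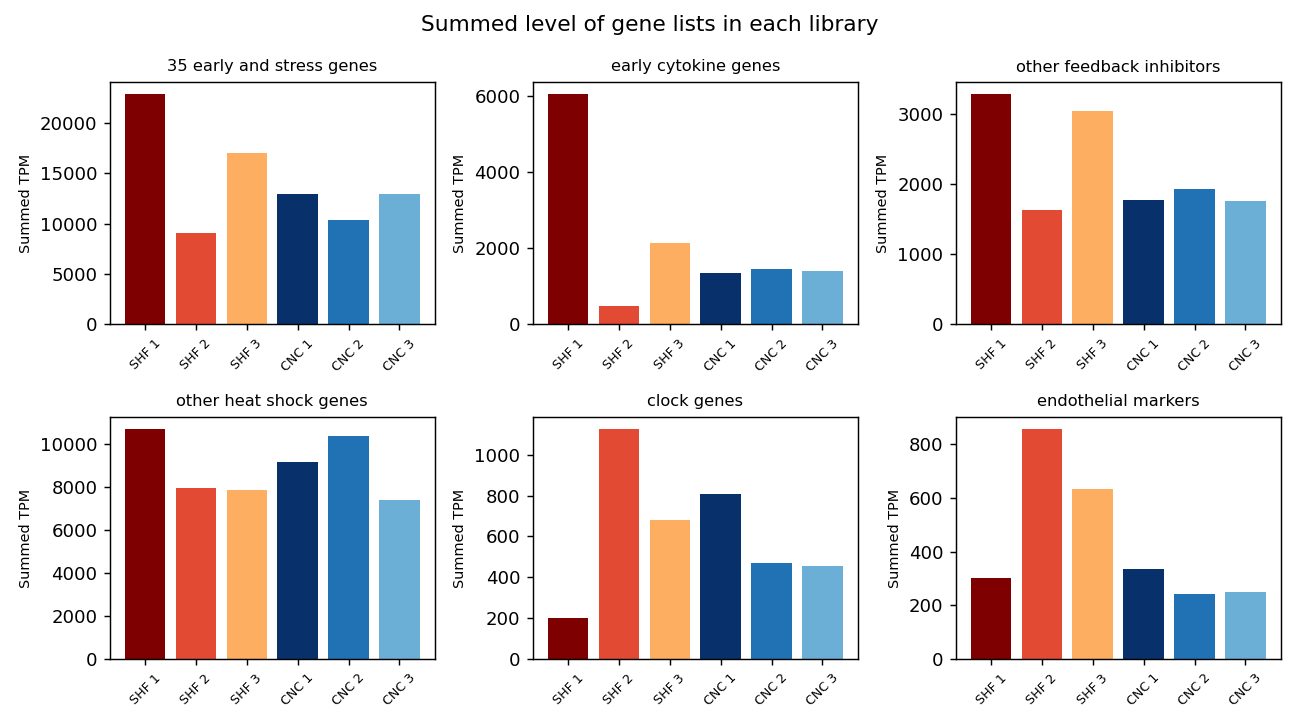
Summed TPM of the 35 genes and of 5 other gene lists in each library, each panel with its own axis from 0. Early cytokine genes run from 486 TPM in SHF replicate 2 to 6057 TPM in SHF replicate 1, and clock genes from 199 TPM in SHF replicate 1 to 1129 TPM in SHF replicate 2.

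Markers of cell types were read in the same libraries, since in bulk samples fewer cells of a type and less RNA per cell cannot be told apart. The 10 fibroblast markers summed to 46992, 44050.3 and 62793 TPM in SHF replicates 1, 2 and 3 and to 70195, 64022 and 67084 TPM in CNC replicates 1, 2 and 3, and 5 of the 10 were lower in each SHF library than in each CNC library, against 5.68% of all tested genes. The 10 smooth muscle markers summed to 3103, 1484 and 1825 TPM in the SHF libraries and to 1379, 2057 and 1624 TPM in the CNC libraries. Among the SHF libraries this sum had the same order as that of the early genes, with replicate 1 highest and replicate 2 lowest, as did 4 of the 10 markers singly. In each library the summed TPM of the fibroblast markers exceeded that of the smooth muscle markers, although sums over different genes give no share of cells. Endothelial markers summed to 302, 858 and 633 TPM in SHF replicates 1, 2 and 3 and to between 241 and 336 TPM in CNC libraries, where *Cdh5* and *Emcn* were listed at 0. *Eng* made up most of the CNC sum, with 275, 181 and 225 TPM against 219, 277 and 113 TPM in SHF, and *Pecam1* was above 0 in all 6 libraries. Leukocyte markers summed to 301, 387 and 178 TPM in SHF libraries and to 79.6, 618 and 23.7 TPM in CNC libraries. *Cd74*, of antigen presentation, stood at 258, 387 and 151 TPM and at 71.6, 267 and 8.09 TPM, and *C1qb* reached 141 TPM in CNC replicate 2. *Ptprc* and *Adgre1* were at 0 in every library. Cardiomyocyte markers summed to between 87.4 and 116 TPM in SHF libraries and between 0 and 37.9 TPM in CNC libraries, with *Myl2* and *Myl7* at 0 in every library. *Tnnt2* stood at 21.5, 87.4 and 60.9 TPM in SHF and at 22.1, 0 and 0 TPM in CNC, and *Actc1* at 42.1, 0 and 28.2 TPM in SHF and at 0 in every CNC library. Schwann cell markers summed to between 1202 and 1930.4 TPM, nearly all of it *Pmp22*, which other cells express too. The part of these cell types in the early gene differences was not tested.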

How the data were processed

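RNA of sorted cells was amplified by the SmartSeq2 protocol, and the authors ran RSEM 1.2.25 with bowtie2 on mm10. They deposited TPM, 1 column per library, each matched here through its library code. The gene annotation is not given in the sources used here. TPM has the same sum in each library and keeps no depth.

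From these TPM, log2(TPM + 1) was compared with limma 3.58.1 in R 4.3.3 (eBayes with a trend, the SHF mean less the CNC mean). The fit took the 10185 genes that reached 1 TPM in 3 or more of the 6 libraries. P-values were adjusted by the Benjamini-Hochberg method, and 0.05 was the threshold. On this scale the ratio of a pair of low values is understated, and group differences of low genes move with the pseudocount. The labels do not say whether each library is 1 mouse, and p-values measure the spread between these libraries. The members and lists were chosen with earlier results of these data known, so no test over the set was made. All members were named, and from each other list the 2 genes of highest mean and the 2 of largest difference could be. Genes at 0 in all libraries were noted for each marker list, after their values were seen. Positions are from GENCODE M21, and promoters from RefSeq. A reading of the study's filter for exclusive transcripts was applied to all rows. Alternatives were other pseudocounts, filters, scalings, a replicate block and each library left out. Python 3.11.15, pandas 2.3.3 and matplotlib 3.10.9 made tables and plots. The single-cell data were not analysed here.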

Additional observations from a re-analysis of the deposited data

How the results depend on the processing

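No member passed the limma threshold under any of the alternatives run, which were other pseudocounts, filters, scalings and variance settings, the replicate block and each library left out. Over all genes, 1 gene passed with CNC higher at a pseudocount of 5. Of 494 single-gene differences under alternatives, 28 changed sign, for 16 genes, and 22 of these came from leaving out a library. With library weights the log2 difference, SHF minus CNC, became 0.01 for *Atf3*, 0.17 for *Dnajb1*, 0.09 for *Fos* and 0.49 for *Nr4a2*. It became 0.19 for *Nr4a2* at a pseudocount of 5 and -0.04 for *Klf6* with median-of-ratios rescaling. The cause was not tested.

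When each library was left out in turn, the median difference of the members had its lowest value, 0.25, when SHF replicate 1 was dropped and its highest, 0.88, when SHF replicate 2 was, and the count of members without overlap, all higher in SHF, lay between 2 and 21. The difference ran from -1.36 to 0.67 for *Atf3*, -0.38 to 0.82 for *Ctgf*, -0.38 to 0.54 for *Cyr61*, -0.35 to 0.22 for *Dnajb1*, -0.06 to 0.94 for *Egr2* and -0.12 to 2.07 for *Egr3*. It ran from -0.25 to 0.28 for *Fos*, -0.09 to 1.10 for *Fosb*, -0.32 to 1.08 for *Gadd45g*, -0.34 to 1.30 for *Hspa1b*, -0.43 to 0.98 for *Ier3*, -0.32 to 0.88 for *Klf2* and -0.28 to 0.22 for *Klf6*. It ran from -1.85 to 1.88 for *Nr4a2*, -0.69 to 0.21 for *Per1* and -0.27 to 0.67 for *Zfp36*.

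The labels give same-numbered SHF and CNC libraries only a number in common. The correlations of their deviations from the group means were between -0.011 and -0.004. Whether such libraries shared a day or a preparation cannot be told from these values. With the replicate number as a block, 0 genes passed the threshold and the median difference of the members was 0.41. With 3 libraries a lineage and no read counts, the 95% interval even of *Fos*, an abundant gene, reached from -0.72 to 0.58 in log2(TPM + 1).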
